A study of Drosophila melanogaster with 3 samples.

Results

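The Hox genes of Drosophila melanogaster were examined as possible binding locations of the transcription factor shaven (sv), a Pax-family protein known for its roles in bristle and eye cone cell development. The members were the 8 Hox genes of the Antennapedia complex (lab, pb, Dfd, Scr and Antp) and the bithorax complex (Ubx, abd-A and Abd-B), taken by name from 13945 annotated protein-coding genes. Of the 3823 peak summits in the deposited optimal set, 18 lay in a Hox gene, within 10 kb of one, or in either complex taken as a single interval. The data were chromatin immunoprecipitation and sequencing (ChIP-seq) peak lists from whole larvae in the third instar at the wandering stage, male and female together. The line, which the labels call sv-GFP, stably expressed the sv-RD isoform fused to a C-terminal GFP. Immunoprecipitation used anti-GFP, as the sample descriptions state, and the labels do not say which promoter drives the transgene. All 3 biological replicates belonged to this 1 group and no other group was compared, so the Hox genes could be set only against the rest of the genome. Whole larvae mix all tissues, so a peak present in few cells and a weak peak in many cells cannot be told apart, and no lineage along the body axis can be read from these lists.

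Hox genes encode homeodomain transcription factors that give the segments of the body their identity, and their order along the chromosome follows the order of the body regions they specify. In flies they are split between 2 complexes on chromosome arm 3R. Both complexes hold long introns and intergenic stretches with enhancers, boundary elements and Polycomb response elements, and several genes that are not Hox genes. In the larva the Hox genes act in the imaginal discs, the nervous system, the gut and the epidermis.

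A strict and a loose kind of peak list were used. The optimal set holds the peaks that the authors kept after a test of reproducibility between replicates, and its 3823 peaks are those of highest signal in the loose list called on all replicates together. That pooled relaxed list and the relaxed list of each replicate hold 30000 peaks each and include background. Rank 1 is the highest of the authors' signal values in a list. A summit in a replicate was matched to an optimal summit when it lay within 200 bp, and it was counted as found in that replicate when it was also among that replicate's 3823 strongest. The depth behind the peaks is unknown, because the lists hold no read counts. All positions are in dm6, counted from 1.

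The sequence under the summits is shown for the 6 Hox summits found in all 3 replicates and for the highest-ranked summit inside Ubx and inside Abd-B, since these carry the description of binding at the complexes. Each runs from 50 bases before the summit to 50 bases after it, on the plus strand of the NCBI Release 6 assembly, which has the same coordinates as dm6. Capitals mark a match to GCCAT (the core recognised by Pho, a Polycomb recruiter) or GGGGCG (a hexamer chosen after the sequences were seen). Both windows labelled Ama upstream lie upstream of the Ama-RA start but inside the annotated Ama gene.
Ama upstream, outer summit, chr3R:6763018-6763118: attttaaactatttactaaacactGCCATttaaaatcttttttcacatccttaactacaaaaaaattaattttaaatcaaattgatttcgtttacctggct
Ama upstream, inner summit, chr3R:6763231-6763331: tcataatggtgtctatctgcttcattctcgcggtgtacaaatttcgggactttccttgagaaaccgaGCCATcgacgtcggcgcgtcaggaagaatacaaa
Antp intron, strongest, chr3R:6912428-6912528: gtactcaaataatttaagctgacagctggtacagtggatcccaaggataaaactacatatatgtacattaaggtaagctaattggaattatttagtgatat
Antp intron, upstream of the Antp-RH start, chr3R:6936240-6936340: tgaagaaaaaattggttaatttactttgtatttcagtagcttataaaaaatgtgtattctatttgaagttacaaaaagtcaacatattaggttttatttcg
CG10324 upstream, beyond Ubx, chr3R:16647098-16647198: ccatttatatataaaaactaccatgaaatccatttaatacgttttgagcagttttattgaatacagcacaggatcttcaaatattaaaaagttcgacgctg
Ubx intron, chr3R:16704416-16704516: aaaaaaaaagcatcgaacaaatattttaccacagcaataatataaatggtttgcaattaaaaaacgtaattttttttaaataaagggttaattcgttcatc
Between Glut3 and abd-A, chr3R:16798853-16798953: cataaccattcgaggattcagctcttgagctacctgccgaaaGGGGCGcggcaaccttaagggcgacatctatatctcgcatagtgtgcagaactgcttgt
Abd-B intron, chr3R:16969992-16970092: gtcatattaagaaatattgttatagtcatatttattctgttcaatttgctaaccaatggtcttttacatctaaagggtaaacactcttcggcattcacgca

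Most of these windows were rich in A and T. Over the 18 Hox windows the GC content ran from 11.9% to 61.4% with a median of 31.7%, against a median of 33.7% over all optimal summit windows. The TAAT core that homeodomain proteins recognise, sought on both strands, was in 14 of the 18 Hox windows (77.8%) and in 75.7% of all optimal windows. CGATA, the core of the boundary protein BEAF-32, was in 0 of the 18 Hox windows and in 18.5% of all optimal windows, or 10.5% of those outside promoters. GAGAG, which the GAGA factor recognises, was in 3 Hox windows (16.7%), against 9.73% of all optimal windows. GCCAT was in 3 Hox windows (16.7%), against 14.8% of all optimal windows. GGGGCG was in 3 Hox windows (16.7%), 1 of them in the promoter of bcd, 1 in an Antp intron and 1 between Glut3 and abd-A. It was in 1.62% of all optimal windows. This hexamer was chosen after these same windows were seen, so the difference is no evidence of enrichment. TATCGATA (DREF), core promoter motif 1 and GTCACGC (a paired-domain core) were in 0 of the 18 Hox windows. They were in 2.01%, 0.889% and 0.366% of all optimal windows, or 0.127%, 0.127% and 0.191% of those outside promoters. At shares this low, 0 of 18 says little.

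Optimal summits lay in the bodies of 3 of the 8 Hox genes, Antp, Ubx and Abd-B, against 9.94% of all protein-coding genes. These 3 are the longest of the 8, and the share of genes with a summit in the body rises with span. No optimal summit lay in any of the 4 Hox genes of 10 to 30 kb (lab, Dfd, Scr and abd-A), against 31.4% of all genes of that span. Among the 3 Hox genes of 30 to 100 kb, Ubx and Abd-B held one and pb did not, against 41.2% of genes of that span. Antp, the only Hox gene above 100 kb, held 4, and 53.0% of genes of that span held at least 1. With 10 kb added on either side, 5 of 8 Hox genes had an optimal summit (Scr, Antp, Ubx, abd-A and Abd-B), against 59.0% of all protein-coding genes, a share close to the background.

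No optimal summit lay within 500 bp of a transcription start of any of the 8 Hox genes, against 19.5% of all protein-coding genes. Weak peaks did lie there. In the pooled relaxed list, 7 of the 8 had a summit within 500 bp of a start (all but Scr), against 53.3% of all protein-coding genes. Only those at Dfd (rank 5816) and at Antp-RH (rank 4747) were matched in all 3 replicate lists. That at lab was matched in replicate 3 alone, and those at pb and Ubx in replicate 1 alone. Those at Abd-B-RB and Abd-B-RE were matched in replicate 1 alone and replicate 3 alone. The abd-A summit was matched in none. The 8 Hox genes together have 19 start sites, of which 9 had such a summit, and the abd-A-RA and abd-A-RD starts share theirs. Genes with several starts have more places for a match.

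The anterior genes of the Antennapedia complex had no optimal summit. lab (FBgn0002522, chr3R:6661427-6678590, minus strand), which acts in the most anterior head segments and the midgut, had its nearest optimal summit 81.1 kb upstream of its start. Its strongest pooled relaxed summit was in an intron and had rank 6032, with ranks 5048, 12217 and 9991 in replicates 1, 2 and 3. A weaker one, 79 bp upstream of the lab-RA start, had pooled rank 10518 and was matched in replicate 3 alone, at rank 4023. pb (FBgn0051481, chr3R:6707800-6742063, minus strand), which specifies adult mouthparts, had its strongest pooled summit at rank 6039, with ranks 5197, 10940 and 9330 in the replicates. Its nearest optimal summit was 17.6 kb away, at bcd. Neither gene therefore had a peak that ranked among the strongest 3823 in any replicate list at its best pooled summit.

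Dfd (FBgn0000439, chr3R:6791836-6802428, plus strand), the gene of the mandibular and maxillary segments, had no pooled relaxed summit in its body. Its strongest within 10 kb lay 306 bp upstream of its single start, with pooled rank 5816 and ranks 4738, 9762 and 7566 in the replicates. Scr (FBgn0003339, chr3R:6823120-6849981, minus strand), which acts in the labial and first thoracic segments, had 5 pooled summits in its body, the best at rank 9644. The optimal summit near Scr was intergenic at position 6818704, past its 3' end by 4.416 kb and 1190 bp upstream of tRNA:Lys-TTT-2-1. It had optimal rank 3028 and ranks 8432, 1551 and 3241 in the replicates, so replicate 1 was the weak one.

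Antp (FBgn0260642, chr3R:6896253-6999228, minus strand), the gene of the second thoracic segment whose gain of function turns antennae into legs, held 4 of the 10 optimal summits of its complex. All 4 were in introns, and none was closer than 3450 bp to an Antp start. The strongest, at position 6912478, had signal 172 and optimal rank 891, with ranks 873, 616 and 1372 in the replicates. A neighbour 232 bp away at 6912710 belongs to an overlapping peak and had optimal rank 1987 with ranks 1482, 3296 and 8505. The summit at 6914498 had rank 1675, with ranks 1373, 4141 and 1924. These 3 summits lie 18342 to 20362 bp downstream of the Antp-RH start. The fourth, at 6936290, lay 3450 bp upstream of that start and had optimal rank 3097, with the close ranks 3714, 3083 and 3598 in the replicates. CG46458 is annotated over the same stretch as these introns, so all 4 summits are inside it as well. A further optimal summit at 6893330, rank 3497, lay past the 3' end of Antp and 132 bp downstream of the start of lncRNA:CR45559, with replicate ranks 7681, 4053 and 2033. At the Antp-RH start itself, the pooled relaxed summit 228 bp upstream had rank 4747, with ranks 5775, 6065 and 5847, outside the strongest 3823 of every list.

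**Figure D1:**
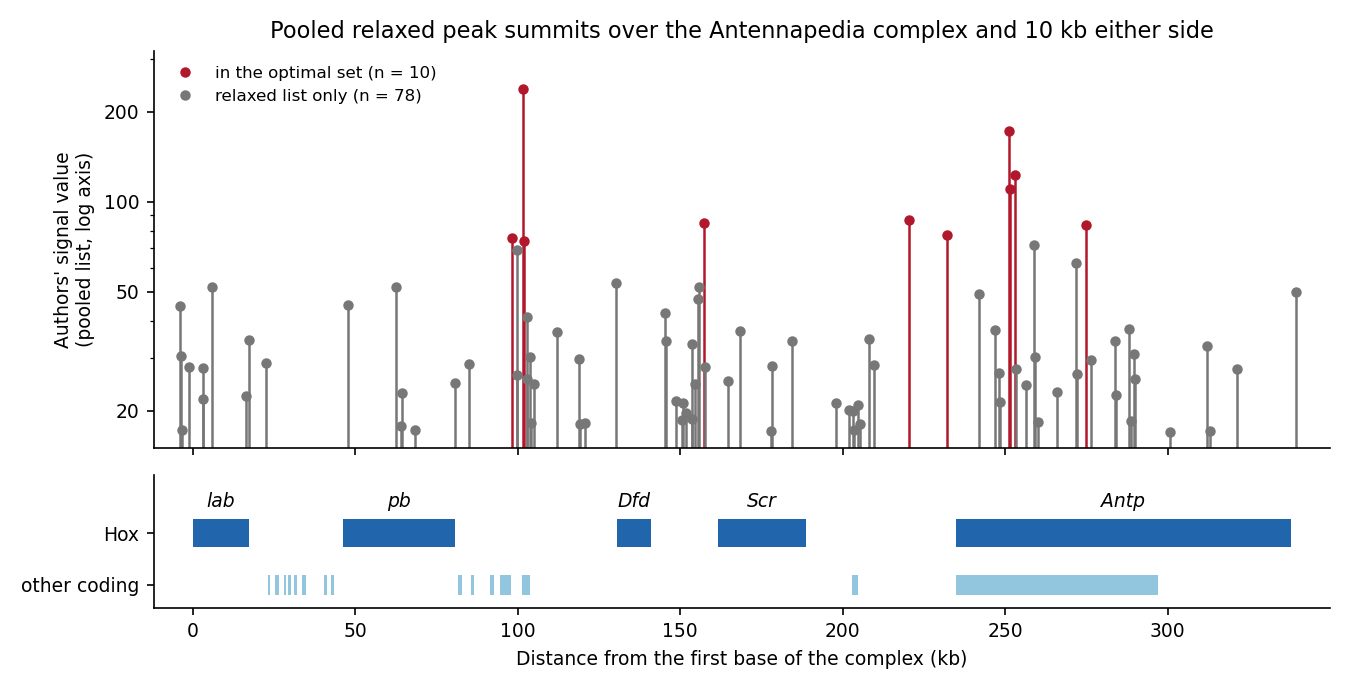
Every pooled relaxed summit in the Antennapedia complex and 10 kb on either side, by its distance from the first base of the complex in kb and its signal on a log axis; optimal summits are red, the others grey, and the lower bars mark the Hox genes and the other protein-coding genes. The 10 optimal summits fall at bcd and Ama, near Scr, in lncRNA:CR44931 between ftz and Antp, and in and near Antp. None falls over lab, pb, Dfd or Scr.

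The rest of the optimal summits of the Antennapedia complex lay at genes that are not Hox genes. bcd, the maternal determinant of the anterior pole, had a summit at position 6759681, upstream of its start by 215 bp, with optimal rank 3600 and ranks 3126, 7721 and 2041 in the replicates. Ama, which encodes an immunoglobulin-domain cell adhesion protein, had 2 summits, both inside the annotated gene (chr3R:6762593-6765261, plus strand). The outer, 336 bp upstream of the Ama-RA start at 6763068, was the strongest of all 18 Hox summits, with signal 238, optimal rank 466 and ranks 432, 490 and 913. The inner, 123 bp upstream at 6763281, had optimal rank 3715, the last among the 18, and ranks 1243, 490 and 1210. Both Ama summits lie 213 bp apart in overlapping peaks, and in replicate 2 they were matched to the same peak. The remaining summit, at 6881798 between ftz and Antp, was in an intron of lncRNA:CR44931 and had rank 2911, with ranks 1711, 2690 and 12546. Of the other genes inside the complex, zen, zen2 and CG34297 had no pooled relaxed summit in their bodies, and ftz had 3, the best at rank 21995. The cluster of 8 cuticle protein genes between lab and pb spans 20.5 kb and had 0 pooled relaxed summits, with 1, 0 and 1 summits in replicates 1, 2 and 3.

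In the bithorax complex 1 optimal summit lay in Ubx, 3 between Ubx and abd-A, 0 in abd-A, 1 between abd-A and Abd-B and 2 in Abd-B, and none was in a promoter. Ubx (FBgn0003944, chr3R:16656623-16734426, minus strand), which makes the balancing haltere different from the wing, held 1 optimal summit. It lay in an intron at 16704466, 29960 bp downstream of the Ubx start, with signal 94.4, optimal rank 2548 and ranks 2029, 2951 and 6419 in the replicates. Its sequence, given above, holds 4 TAAT cores and none of the other motifs. Beyond the 3' end of Ubx, by 9.475 kb, an optimal summit at 16647148 lay 144 bp upstream of CG10324, with rank 1835 and ranks 3131, 1821 and 1643. It lies outside the complex, and its nearest start is not that of a Hox gene. At the Ubx start the pooled relaxed summit 473 bp upstream had rank 27451, near the end of the list, and was matched in replicate 1 alone.

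abd-A (FBgn0000014, chr3R:16807214-16830049, minus strand), the gene of the middle abdominal segments, had no optimal summit in its body, where the best pooled summit had rank 13159 and lay in a coding exon. The strongest peak of the bithorax complex was near it, in the intergenic stretch between Glut3 and abd-A. Its summit at 16798903 was 8.311 kb past the 3' end of abd-A and 1697 bp upstream of lncRNA:CR45750, with signal 223 and optimal rank 525. It ranked 1116, 425 and 311 in the replicates, high in all of them. A pooled summit at the abd-A-RA start, 1 bp from it, had rank 21102 and was matched in none of the replicate lists.

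Abd-B (FBgn0000015, chr3R:16927212-16972236, minus strand), which specifies the posterior abdomen and the genitalia, held 2 optimal summits, both in introns and both within 2 kb of a start without being at it. The summit at 16970042 lay 1468 bp upstream of the Abd-B-RJ start and had rank 2407, with ranks 2971, 4592 and 2913 in the replicates. The summit at 16958312 lay 1969 bp downstream of the Abd-B-RA start and had rank 2738, with ranks 1760, 9831 and 4284, so only replicate 1 had it among its strongest. The other 3 optimal summits of the complex lay between genes of the Hox family. One at 16769585 was in an intron of lncRNA:bxd, the noncoding RNA of the bithoraxoid region upstream of Ubx, with rank 3638 and ranks 5799, 3289 and 2712. One at 16794441 was intergenic, 6130 bp from the start of Glut3, with rank 3124 and ranks 1632, 4255 and 15018. One at 16869420 lay in an intron shared by MSAmiP and lncRNA:iab8 between abd-A and Abd-B, with rank 2925 and ranks 4298, 1742 and 3780.

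**Figure D2:**
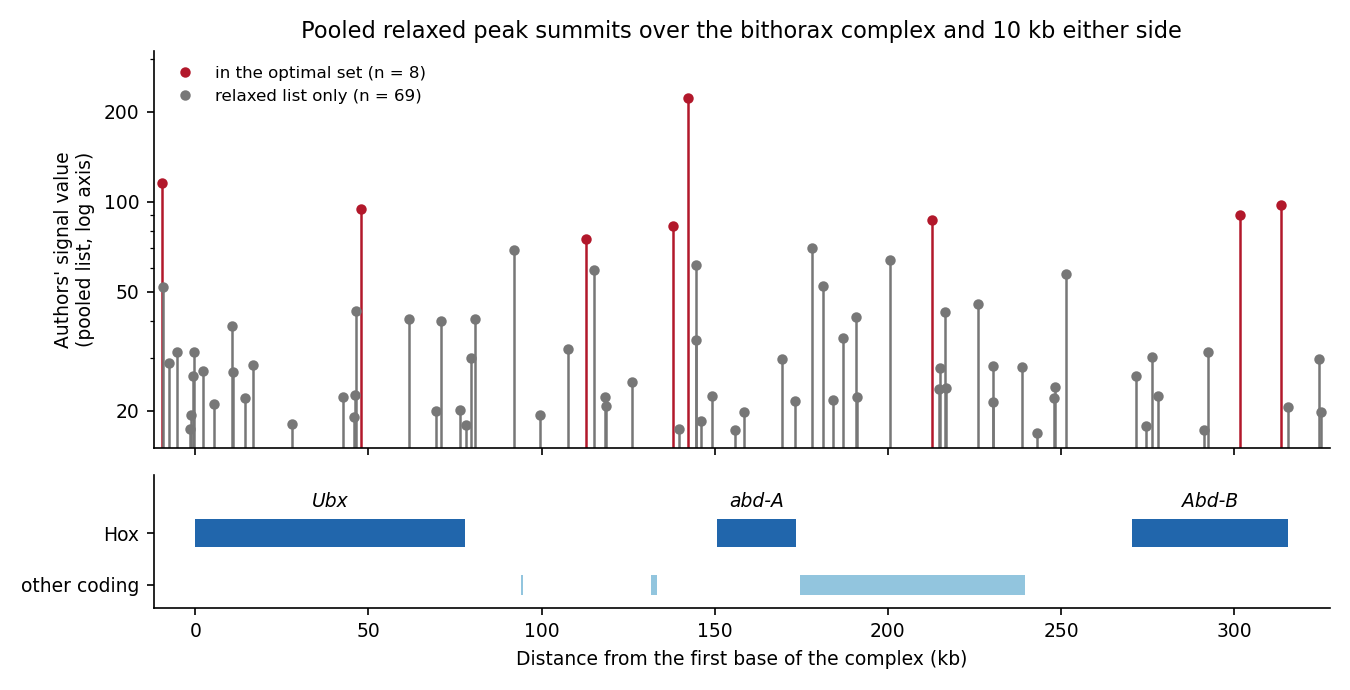
Every pooled relaxed summit in the bithorax complex and 10 kb on either side, by its distance from the first base of the complex in kb and its signal on a log axis; optimal summits are red, the others grey, and the lower bars mark the Hox genes and the other protein-coding genes. The 7 optimal summits inside the complex are spread along it, and the tallest, with signal 223, stands left of abd-A; the red summit left of the complex is that of CG10324.

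By position, most of the 18 Hox summits were in introns. Promoters (within 500 bp of any annotated start) held 5 of the 18 (27.8%), against 58.9% of all optimal summits and 62.1% of those on 3R. Introns held 10 (55.6%), against 28.8%, and 3 (16.7%) were intergenic, against 9.94%. The 5 promoter summits belonged to bcd, Ama (2 summits), lncRNA:CR45559 and CG10324. The median distance from a Hox summit to the nearest start of any gene was 2709.5 bp, against 293 bp over all optimal summits, and 13 of the 18 (72.2%) lay more than 1 kb away, against 31.9%. These shares are descriptions of 18 summits without a test, and neighbouring summits share peaks. How much of the intervals is intron or lies near a start was not computed, so the shares are not corrected for it.

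The Hox summits ranked mostly in the lower part of the optimal set. Their median rank was 2824.5 of 3823, against 1912 over the whole set, and their median signal was 88.7, against 114. Ranks 2868 to 3823 held 9 of the 18, and ranks 1 to 955 held 3. All 18 had a match within 200 bp in all 3 relaxed replicate lists, against 96.6% of all optimal summits, so this is near what any optimal summit showed. The authors chose the optimal set by reproducibility between these same replicates, so matches in them are not independent support. Among the strongest 3823 peaks of replicates 1, 2 and 3, 14, 12 and 13 of the 18 were found, or 72.2% ± 5.56 (SD, n = 3), against 82.5% ± 2.86 over the whole optimal set (SD, n = 3). Of the 18, 6 were found in all 3 replicates (33.3%), against 60.6% of all optimal summits, while 9 were found in 2 replicates and 3 in 1. Found in at least 2 replicates were 15 (83.3%), against 87.6% of all optimal summits. Leaving out any of the 3 replicates, and keeping summits found in both others, left 9 of the 18 in each case, against 67.8%, 70.1% and 70.9% of all optimal summits without replicates 1, 2 and 3.

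Rank moved with these shares. At ranks 1 to 955, 3 of 3 Hox summits were found in all 3 replicates, against 99.0% of all optimal summits of those ranks. At ranks 956 to 1911 it was 1 of 2, against 89.3%. At ranks 1912 to 2867 it was 0 of 4, against 43.1%, and at ranks 2868 to 3823 it was 2 of 9, against 10.9%. The 2 at the weakest ranks were the inner Ama summit and the Antp summit at 6936290. In replicate 2 the inner Ama summit was matched, 182 bp away, to the peak that also matched the outer one. It therefore has no peak of its own there. With matches within 100 bp, 5 of the 18 were found in all 3 replicates, and within 500 bp 7 were. The least even of the 18, the summit near Glut3, ranked 1632 in replicate 1 and 15018 in replicate 3.

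**Figure D3:**
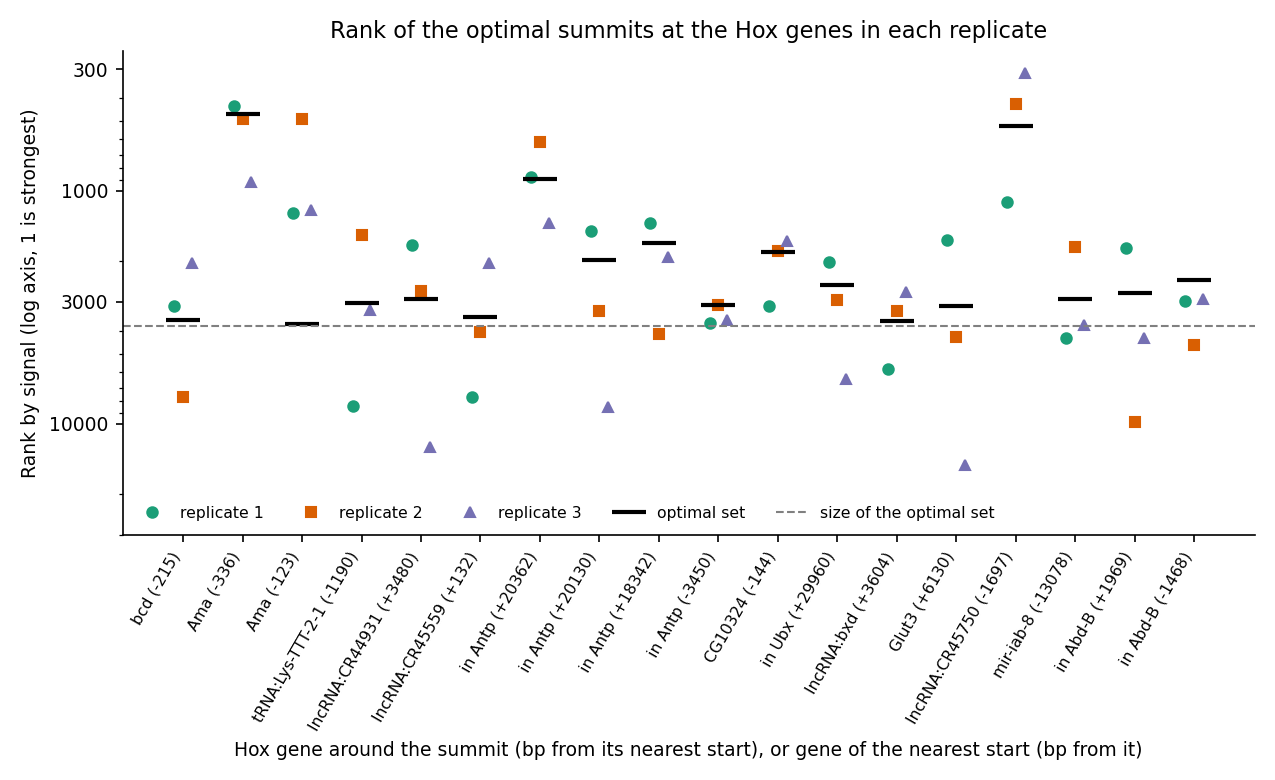
Rank by signal, on a log axis with the strongest at the top, of each of the 18 Hox summits in the optimal set (black bars) and of its matched summit in each replicate (coloured points), in the order of position on 3R. Only 6 summits, those of Ama (2), Antp (2), CG10324 and lncRNA:CR45750, have all 3 replicates above the dashed line at rank 3823.

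Just below the optimal set lay more Hox peaks. The strongest in the Antennapedia complex that missed it was another Antp intron summit, at 6920191, with pooled rank 3925 and replicate ranks 2765, 3798 and 8239. In the bithorax complex it was a summit at 16834839, 4790 bp upstream of the abd-A-RD start, with rank 4032 and ranks 4875, 2572 and 10137. A summit 874 bp upstream of mir-iab-8, a microRNA locus between abd-A and Abd-B, had rank 4618 and the even ranks 5120, 4497 and 4973. The Antp and abd-A-RD summits had signals of 71.4 and 70.2, and the weakest Hox summit inside the set had 73.9.

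As single intervals, both complexes had about as many summits as the rest of 3R or fewer. The Antennapedia complex (chr3R:6661427-6999228, 338 kb) held 10 optimal summits, or 2.96 per 100 kb, against 3.33 in the rest of 3R. Its 83 pooled relaxed summits gave 24.6 per 100 kb, against 25.5 in the rest of 3R. In the replicate lists it held 93, 68 and 64 summits, or 27.5, 20.1 and 18.9 per 100 kb in replicates 1, 2 and 3, against 26.0, 25.8 and 25.8 in the rest of 3R. Replicate 1 was thus above its arm and the other two were below it. The ratio of densities averaged 0.857 ± 0.176 (SD, n = 3), and the exact two-sided sign-flip permutation test of the 3 log2 ratios gave p = 0.5, with 0.25 the smallest p that 3 replicates allow.

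The bithorax complex (chr3R:16656623-16972236, 316 kb) held 7 optimal summits, or 2.22 per 100 kb, and 66 pooled relaxed summits, or 20.9 per 100 kb, against the same densities of 3R. Its replicate lists held 65, 75 and 72 summits, or 20.6, 23.8 and 22.8 per 100 kb, lower than the rest of 3R in 3 of 3 replicates. The ratio averaged 0.865 ± 0.0657 (SD, n = 3), and the exact two-sided sign-flip permutation test gave p = 0.25, the smallest it can give here. Over each replicate's 3823 strongest peaks the ratio was lower, at 0.678, 0.465 and 0.565 in replicates 1, 2 and 3, with a mean of 0.569. Set among the 269 windows of 100 kb along 3R, where the pooled count ran from 1 to 64 with a median of 25, the Antennapedia complex was denser than 49.8% and the bithorax complex than 37.9%. Both lay inside the middle range of windows, between the quartiles of 15 and 35. The complexes are averages over 338 kb and 316 kb, which vary less than single windows of 100 kb, so this place says little.

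**Figure D4:**
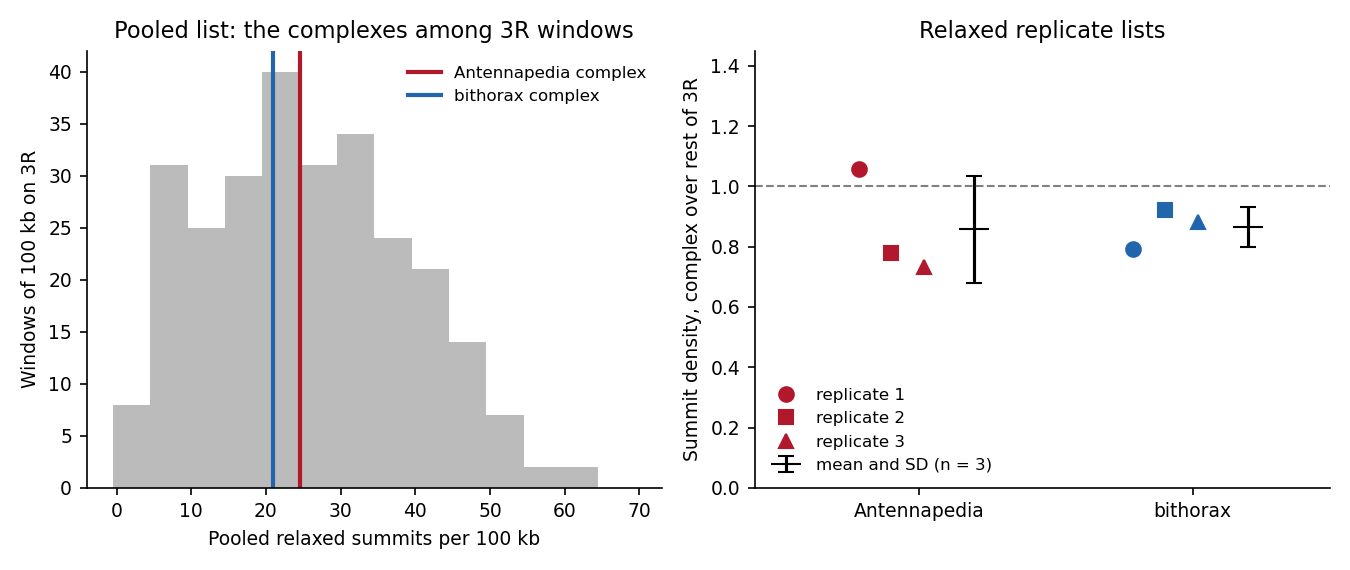
Left, the number of 100 kb windows of 3R (y axis) by their pooled relaxed summits per 100 kb, with the Antennapedia complex at 24.6 (red) and the bithorax complex at 20.9 (blue). Right, summit density of each complex over that of the rest of 3R in each replicate list, with the mean and SD of 3 replicates in black; the dashed line at 1 marks equal density, and 5 of the 6 ratios lie below it.

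Pooled summits in the complexes were matched in the replicate lists in shares of 51.5% to 73.5%. Within 200 bp, 73.5%, 53.0% and 61.4% of those in the Antennapedia complex had a match in replicates 1, 2 and 3, and 63.6%, 51.5% and 66.7% of those in the bithorax complex, against 67.9%, 60.2% and 62.5% over the whole pooled list. The optimal set took up 10 of the 83 pooled summits in the Antennapedia complex and 7 of the 66 in the bithorax complex, against 12.7% of the whole list. Each replicate's own strongest 3823 peaks put 10, 8 and 9 summits in the Antennapedia complex and 7, 5 and 6 in the bithorax complex. For the Antennapedia complex the ratios to the density in the rest of 3R were 0.905, 0.695 and 0.792. Of these summits, 2, 2 and 1 in the Antennapedia complex and 2, 1 and 2 in the bithorax complex had no optimal summit within 200 bp, against 13.2%, 18.9% and 19.5% of the strongest peaks over the whole lists of replicates 1, 2 and 3.

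Density was uneven within the Antennapedia complex. The 20.7 kb between Dfd and Scr had 62.8 pooled summits per 100 kb, more than its 33.8, 33.8 and 53.2 in replicates 1, 2 and 3 (40.3 ± 11.2, SD, n = 3). The 49.8 kb between pb and Dfd, which holds zen, bcd and Ama, had 34.2 in the pooled list, and the 46.3 kb between Scr and Antp had 21.6. Over the gene bodies the pooled density was 26.2 over Antp, 23.3 over lab, 18.6 over Scr, 14.6 over pb and 0 over Dfd. The 29.2 kb between lab and pb, with the cuticle genes, had 6.85. Between Scr and Antp the replicate lists were far apart, with 14, 5 and 3 summits in replicates 1, 2 and 3. In the bithorax complex the segments were closer to each other, from 17.5 over abd-A to 24.7 between Ubx and abd-A, with 20.6 over Ubx, 17.8 over Abd-B and 20.6 between abd-A and Abd-B. In the replicate lists the density over a gene body averaged 24.3 ± 5.41 per 100 kb over Antp, 17.1 ± 2.68 over Ubx, 19.2 ± 8.41 over Abd-B and 19.0 ± 5.06 over abd-A (SD, n = 3 each). The averages were 29.1 ± 10.1 over lab, 16.5 ± 1.69 over pb, 19.9 ± 2.15 over Scr and 6.29 ± 10.9 over Dfd (SD, n = 3 each). The rest of 3R averaged 25.9 ± 0.0931 (SD, n = 3). In Dfd replicate 1 had 2 summits and the other two had 0, and the order of the 7 genes above Dfd rests on differences no larger than these SDs between neighbours.

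A stretch of 302 kb without an optimal summit covered lab and pb. It ran from a summit 52 bp from the start of Zif, at 6457192, to the bcd summit, and it was the fifth longest of the 918 gaps between neighbouring optimal summits on 3R, where the longest was 402 kb and the median 11.6 kb. It held 33 protein-coding genes, 14 of them inside the complex, and 31 pooled relaxed summits, or 10.2 per 100 kb. The best of these had rank 5473. Among the strongest 3823 peaks of replicates 1, 2 and 3 it held 0, 0 and 1. On the other side of the Antennapedia complex the next optimal summit was 68.0 kb away, 84 bp upstream of CG1105, with rank 410. The longest gap in the bithorax complex was 88.9 kb, from the summit in MSAmiP to that at Abd-B-RA. Past the Abd-B end of the complex the next optimal summit was 14.4 kb away, 190 bp downstream of the CG18622 start, with rank 503.

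The genes that keep Hox transcription on or off were set beside the Hox genes by the same rule of 10 kb, against 59.0% of all protein-coding genes. Of the Polycomb group, which keeps Hox genes silent, 18 of 23 had an optimal summit (78.3%). ph-p, a subunit gene of a Polycomb repressive complex, had its best summit, rank 16, inside the gene, 476 bp upstream of a ph-p start. The summit near Caf1-55 (rank 25) was nearest to the start of Art3, that near Pc (rank 67) to CG11309 and that near phol (rank 69) to CG3552. Of the trithorax group and the Mediator kinase module, which keep Hox genes active, 17 of 19 did (89.5%). At brm, the ATPase gene of the SWI/SNF remodelling complex, the best summit had rank 141 and lay 116 bp upstream. Trl, which encodes the GAGA factor, had one in an intron at rank 23, and osa, another SWI/SNF subunit, had one in the gene at rank 32. The osa summit was nearest to the start of lncRNA:CR46035, 700 bp downstream of it, and lay 13955 bp from the nearest osa start. The summit near ash1, a histone methyltransferase gene, had rank 2 and was nearest to the start of CG14100.

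Hox cofactors and partners had a summit in 5 of 7 cases (71.4%). hth, the homeodomain cofactor that brings Exd into the nucleus, had its best in an intron at rank 1533. disco-r had one in an intron at rank 3066, while the summits near lin (rank 1573) and tsh (rank 2663) lay outside those genes. Genes that Hox proteins regulate had one in 8 of 14 cases (57.1%). At bs, a wing intervein factor gene, it had rank 1146 and lay inside the gene, 52 bp upstream of a bs start. The best summits near dpp (rank 1423), kn (rank 1522) and vg (rank 1799) were nearest to the starts of CG9886, BEAF-32 and Nmda1.

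Lists of transcription factor genes that act before the Hox genes, or are other homeobox genes, had shares below that of all genes, without a test of the difference. Gap and pair-rule regulators had one in 7 of 16 cases (43.8%), with slp2 and slp1 sharing a summit at rank 154, and ftz-f1 with one in an intron at rank 1730. The summit near cad, rank 716, was nearest to the start of Pomp, 217 bp upstream of it. The list of other homeobox complexes, which also holds genes outside any complex such as oc and Dll, had one in 7 of 22 cases (31.8%). Of the 22, 0 had one in the gene body, against the 9.94% of all genes. tin, the heart and visceral muscle factor, had its best summit (rank 550) 194 bp upstream, and en, the posterior compartment factor, had its best (rank 1176) 1420 bp upstream. C15 had one at rank 166 that was nearest to the start of sp3, and oc one 6070 bp upstream at rank 1804. The other genes of the Antennapedia complex had one in 3 of 13 cases (23.1%), namely zen, bcd and Ama, all within reach of the Ama summit of rank 466. These lists were chosen with earlier results known, differ in gene length, and were not tested against each other.

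**Figure D5:**
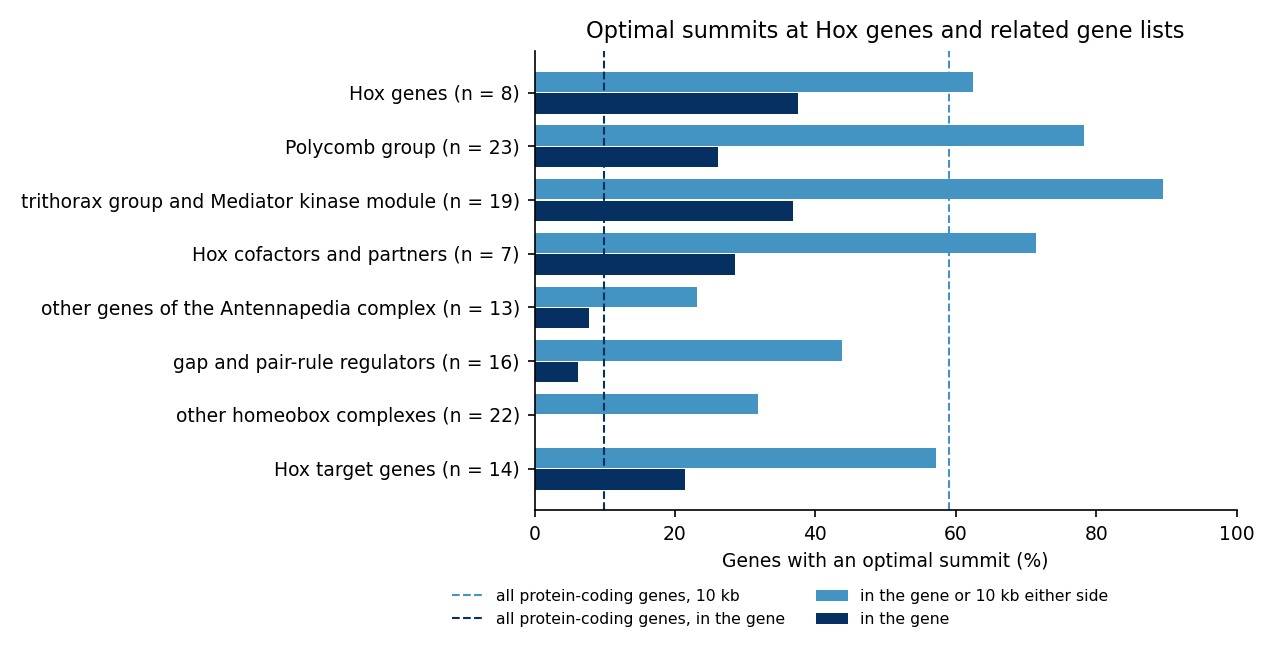
Percent of the genes in each list with an optimal summit in the gene or 10 kb either side (light bars) and in the gene (dark bars), with the Hox genes at the top; dashed lines mark the same over all protein-coding genes, at 59.0% and 9.94%. The Hox genes stand at 5 of 8 and 3 of 8, and the trithorax group list at 89.5% is the highest of those drawn.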

How the data were processed

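Anti-GFP ChIP-seq peaks of 3 biological replicates were used in dm6; the dm3 lists were not used here. Per the deposited file manifests, the replicate and pooled lists were called against a shared control and are input for IDR (the irreproducible discovery rate). For the aligner, caller and IDR threshold, nothing is stated in the sources used here, and the control was not analysed here. The signal value deposited by the authors ranked peaks within a list only. The deposited −log10 q was not used for ranking, and the deposited summit offset gave positions. The descriptions name an antibody against GFP and the antibody field names sv; native sv would be recovered too if the field is right. The labels give sonication, with 200 to 800 as the size range and no unit.

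Genes came from Ensembl release 115 (BDGP6.54), which shares the coordinates of dm6. A summit within 500 bp of any annotated start was a promoter summit; the other classes, in order, were 5' UTR, then 3' UTR, then exons (coding first), introns and intergenic. A sign-flip permutation test was run on 3 density ratios per complex, and all other values are descriptions. Scripts used Python 3.11.15, numpy 2.4.6, pandas 2.3.3 and matplotlib 3.10.9. The members and the 7 gene lists were chosen with earlier results of these data known. The genes named are the 8 Hox genes, the genes nearest to their optimal summits, genes inside the complexes with an optimal summit, those at the next optimal summits outside, and up to 4 members per list with the highest-ranked summit. The hexamer GGGGCG, the genes inside the complexes without a summit, and the comparison of the summits just below the optimal set were chosen after their values were seen.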

Additional observations from a re-analysis of the deposited data

How the results depend on the processing

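Counts of optimal summits depended on how strong a summit had to be, and the cause was not tested. The number of Hox genes with a summit (5) was 3 for the gene body, 3 within 2 kb, 3 with the 1911 strongest optimal summits and 3 to 4 when a replicate was left out, which keeps only summits found in both others. The share of all protein-coding genes was then lower too, at 40.8% with the 1911 strongest and 49.2% to 49.6% without a replicate, in place of 59.0%. Summits in the Antennapedia complex (10) numbered 3 among those 1911 and 5 to 6 without a replicate; those in the bithorax complex (7) numbered 1 and 2 to 3. Counting overlapping peaks once, chosen after seeing the data, gave 8 and 7. Pooled density in the Antennapedia complex (24.6 per 100 kb) was 13.6 for pooled peaks stronger than the list's median. In the bithorax complex (20.9) it was 10.8 for those, 22.9 with 10 kb added on either side and 18.7 for peaks below the optimal set. The cuts by strength remove peaks from the whole genome, so lower densities follow from them and say nothing particular about the complexes. The density of the rest of 3R at the same cuts is not given here. The bithorax density ratio (0.865) was 0.569 with each replicate's strongest peaks. All 18 Hox summits, in place of 6, were found in all 3 replicates when the whole relaxed lists counted, against 96.6% of all optimal summits. For the gene lists, gene bodies (9.94% of all genes) gave 6 (Polycomb), 7 (trithorax), 2 (cofactors), 1 (other Antennapedia), 1 (gap and pair-rule), 0 (homeobox) and 3 (targets). The 1911 strongest (40.8% of all genes) gave 11 for trithorax, 2 for cofactors, 4 for gap and pair-rule, 4 for homeobox and 4 for targets. Leaving out a replicate (49.2% to 49.6% of all genes) gave 2 to 3 for cofactors, 4 to 6 for gap and pair-rule and 4 to 6 for targets. No paired analysis was possible because there is 1 group. Depth is unknown, so a Hox gene without a peak may lack one only at this depth.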
